A study of Mus musculus with 6 samples.

Results

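The genes described here are the ISWI chromatin remodellers, the ATPase genes Smarca5 and Smarca1, and 8 genes of proteins that pair with them, Baz1a, Chrac1, Baz1b, Baz2a, Baz2b, Bptf, Cecr2 and Rsf1. They were taken by symbol from the deposited count files, and all 10 were found among 55367 symbols. The study measured RNA in acinar cells of the mouse pancreas, which secrete digestive enzymes, and its title names SMARCA5. All 6 libraries formed 1 group from mice of genotype Pdx1-Cre; Klf5-mCherry-CreERT2 without treatment. Pdx1-Cre drives a recombinase in cells with Pdx1 promoter activity, and the other allele joins a red fluorescent protein and a tamoxifen-dependent recombinase to Klf5. Each library was made by a modified Smart-seq2 protocol from 300 cells sorted for GFP, and no GFP reporter is named in the genotype. No library came from mice with altered Smarca5, so these data give levels and no effect of a treatment or mutation. Nothing in the labels ties the libraries to separate animals, and p-values measure only the spread between these samples, which may be technical.

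ISWI remodellers use the energy of ATP to slide nucleosomes and space them evenly. The ATPase, SNF2H from Smarca5 or SNF2L from Smarca1, does the sliding, and its partner helps to direct the complex. With Baz1a it forms ACF, and with Chrac1 added CHRAC, with Baz1b WICH, with Baz2a the nucleolar complex NoRC, with Bptf NURF, with Cecr2 CERF and with Rsf1 the RSF complex.

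Total counts were 4670819 to 7072270 per library, and ribosomal RNA genes took 38.1% to 60.9% of them. Because counts cover whole gene spans with introns, a background was measured in each library over 1487 olfactory and vomeronasal receptor genes, which serve in sensory neurons, and multiplied by the span of each gene to give its expected background. Replicate 5 stood apart. It had 327 background counts per Mb against 26.5 to 109 in the other 5 libraries, and it held 56.3% of all background counts but 9.96% of the counts outside ribosomal RNA. The deposited names carry a number of unstated meaning that is shared by replicates 1 to 3 (set A) and by replicates 4 to 6 (set B). All 8 acinar markers were over 3 times background in 6 of 6 libraries. Their summed level was 270137 to 308628 TPM in set A and 105505 to 166689 TPM in set B, where TPM are counts per length scaled to the library total. Ribosomal RNA, 38.1% to 46.8% of counts in set A and 59.9% to 60.9% in set B, is part of the library total. Enzyme genes such as Ctrb1 and Prss2 make up most of the sum. Ptf1a, Bhlha15 and Rbpjl, also among the 8, overlapped between the sets. Ptf1a had 11.8 to 14.4 TPM in set A and 7.83 to 14.0 in set B. Bhlha15 had 31.2 to 37.2 and 19.7 to 37.3 TPM, and Rbpjl 28.2 to 29.9 and 11.3 to 28.9 TPM. The 6 endocrine markers summed to 8.96 to 39.4 TPM in set A and 36.3 to 2224 TPM in set B, and the 4 proliferation markers to 1.35 to 1.80 and 6.22 to 8.00 TPM. The part of other cells in the values below was not tested.

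Of the 10 ISWI genes, 8 stood above background and Smarca1 and Rsf1 did not pass the test. The test was edgeR's quasi-likelihood test of counts against expected background, at a Benjamini-Hochberg adjusted p under 0.05 over all 17338 genes tested. In the same test 62% of all genes (69.6% of protein-coding genes, 41.7% of genes with no filter on low counts) were above background and 0.311% below it, so a call by itself does not set these genes apart. The median log2 ratio of counts to background was 3.18 over the 10 genes and 2.14 over all genes tested. In sorted bulk samples fewer cells expressing a gene and less RNA per cell cannot be told apart.

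**Figure D1:**
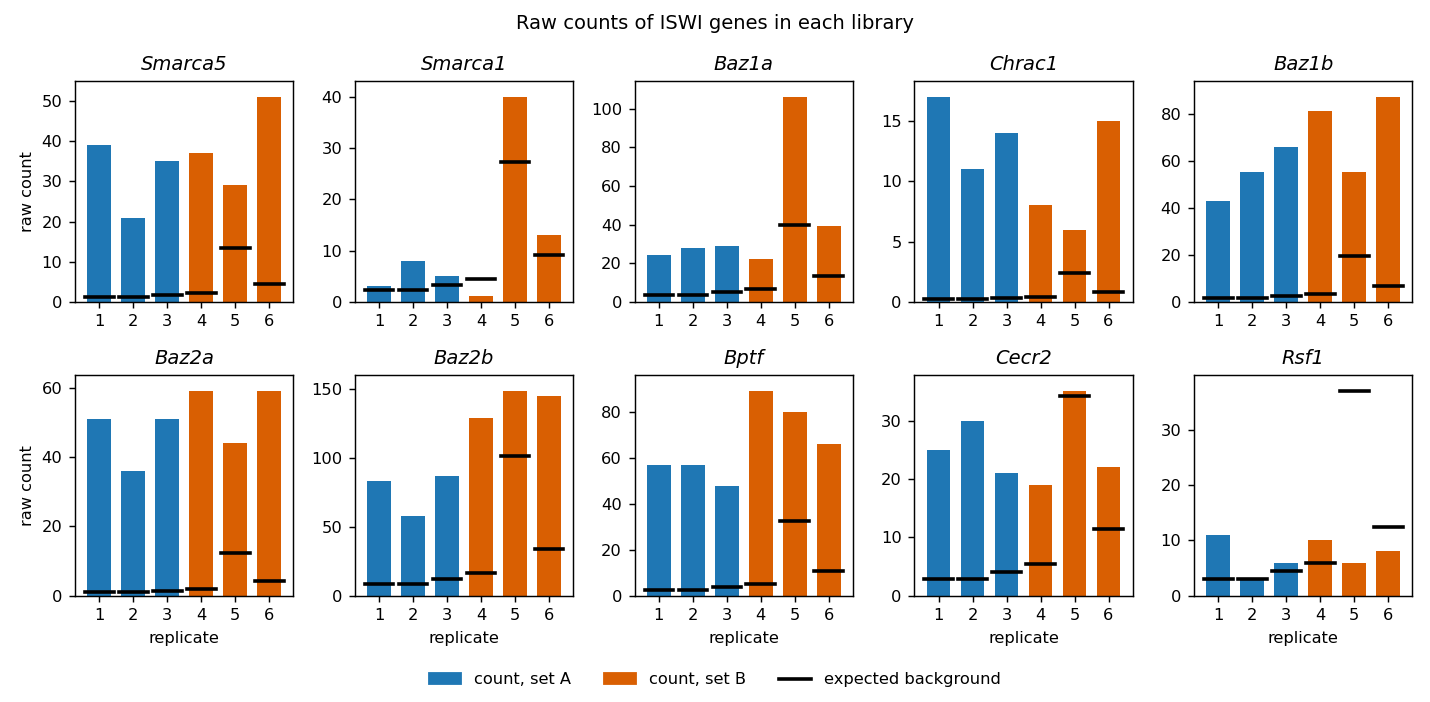
Raw counts (y axis) of each ISWI gene in replicates 1 to 6 (x axis), with bars coloured by set and a black line at the background expected from receptor genes in that library. The line is highest in replicate 5, where it nearly meets the bar of Cecr2 and lies above that of Rsf1.

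Smarca5, the ATPase named in the title, was measured at a low but clear level. It lies on chromosome 8, 80698507 to 80739497 (build mm10, minus strand), with 40991 bp of span and 7777 bp of exons. Its counts in replicates 1 to 6 were 39, 21, 35, 37, 29 and 51, where 1.09, 1.10, 1.62, 2.14, 13.4 and 4.48 were expected as background. The count was above background in each library, by 11.4 to 35.9 times in 5 of them and by 2.16 times in replicate 5. The fitted log2 ratio was 4.06 (SE 0.31, n = 6, edgeR adjusted p = 5.1e-11), and 4.22 without replicate 5. The level by exon length was 1.37 ± 0.409 TPM (SD, n = 6), from 0.82 in replicate 2 to 1.92 in replicate 6.

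Smarca1, the second ISWI ATPase gene and one best known from the nervous system, was close to background. It lies on chromosome X, 47809368 to 47892974 (minus strand), and had 3, 8, 5, 1, 40 and 13 counts, with 2.21, 2.24, 3.30, 4.36, 27.4 and 9.14 expected. Of its 70 counts, 57.1% came from replicate 5, close to the 56.3% of background counts held by that library. Its log2 ratio to background was 0.59 (SE 0.45, n = 6, edgeR adjusted p = 0.28), and 0.56 without replicate 5. Of 426 receptor genes with 5 or more counts expected, 77.2% had a lower pooled ratio than the 1.44 of Smarca1 (exact Poisson 95% interval 1.12 to 1.82, counting error only), which lies within the spread of the receptor genes. Its level by exon length was 0.740 ± 1.15 TPM, or 0.279 ± 0.233 without replicate 5.

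Because the ATPases are close relatives, their coding sequences were compared to see whether short reads could be counted for the wrong one. The coding sequences of 3153 and 3186 bases (GENCODE M21, GRCm38) were 73.8% identical over 3128 aligned bases, and the longest run shared by both was 21 bases. The run lies just after 12 in-frame bases, gatgaagctcac, which are the same in both genes and encode the DEAH box of the ATPase motor. It is shown with 30 bases on either side, 5′ to 3′ on the coding strand, with the 14 differing bases in capitals, to show how densely differences fall even in this conserved part.
Smarca5, coding bases 904 to 984, exon 7 (chr8:80726211-80726261) and exon 8 (chr8:80726092-80726121), minus strand: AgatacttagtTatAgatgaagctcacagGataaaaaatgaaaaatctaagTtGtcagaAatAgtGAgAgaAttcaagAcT
Smarca1, coding bases 928 to 1008, exon 7 (chrX:47876385-47876435) and exon 8 (chrX:47875266-47875295), minus strand: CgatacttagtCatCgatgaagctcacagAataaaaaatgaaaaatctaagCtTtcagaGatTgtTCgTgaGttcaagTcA
No coding stretch longer than 21 bases was identical, so a longer error-free read from the coding sequence of one gene differs from the other. The longest shared runs were shorter still between Baz1a and Baz1b (14 bases) and between Baz2a and Baz2b (15 bases). The read length is not given in the sources used here.

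Baz1a of ACF and CHRAC and Chrac1 of CHRAC were above background, and the signal of Baz1a was uneven between libraries. Baz1a, which encodes the large ACF subunit, lies on chromosome 12, 54892989 to 55014348 (minus strand), and had 24, 28, 29, 22, 106 and 39 counts with 3.22, 3.25, 4.79, 6.33, 39.7 and 13.3 expected. The count in replicate 5 exceeded background by 66.3, against 15.7 to 25.7 in the other libraries. As a ratio to background replicate 5 was the lowest, at 2.67 against 2.94 to 8.61. The log2 ratio to background was 2.33 (SE 0.34, n = 6, edgeR adjusted p = 2.1e-06), and 2.44 without replicate 5. Its level by exon length was 2.07 ± 2.38 TPM, or 1.10 ± 0.321 without replicate 5.

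Chrac1, a small histone-fold subunit of CHRAC, lies on chromosome 15, 73090392 to 73097554 (plus strand), and has the shortest span of the 10 genes, 7163 bp. It had 17, 11, 14, 8, 6 and 15 counts with 0.19, 0.19, 0.28, 0.37, 2.34 and 0.78 expected. In replicate 5 its ratio of 2.56 had an exact Poisson 95% interval of 0.940 to 5.57, which includes 1, and in the other 5 libraries it was 19.2 to 89.6. The log2 ratio was 4.81 (SE 0.37, n = 6, edgeR adjusted p = 7.3e-11), the highest of the 10 genes in this fit, and 4.76 without replicate 5. Its level by exon length was 1.45 ± 0.315 TPM. The end of the gene overlaps Ago2 on the other strand, which covers 9.31% of its exon bases.

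Baz1b, Baz2a and Baz2b encode partners with a bromodomain and a PHD finger, modules that read histone marks, and all 3 were above background. Baz1b of WICH (chromosome 5, 135187264 to 135246129, plus strand) had 43, 55, 66, 81, 55 and 87 counts with 1.56, 1.58, 2.32, 3.07, 19.3 and 6.43 expected. Its log2 ratio to background was 4.41 (SE 0.28, n = 6, edgeR adjusted p = 1.8e-12), and 4.59 without replicate 5. Baz2a of NoRC (chromosome 10, 128091577 to 128129303, plus strand) had 51, 36, 51, 59, 44 and 59 counts with 1.00, 1.01, 1.49, 1.97, 12.3 and 4.12 expected. Baz2a was the single member over 3 times background in 6 of 6 libraries, which 18.6% of 14448 protein-coding genes with 10 or more counts also were. Its log2 ratio was 4.71 (SE 0.28, n = 6, edgeR adjusted p = 5.9e-13), and 4.86 without replicate 5. The levels of Baz1b and Baz2a by exon length were 1.45 ± 0.464 and 1.42 ± 0.355 TPM.

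Baz2b, a relative of Baz2a, had the most counts of the 10 genes, and also the longest span, 310477 bp (chromosome 2, 59899363 to 60209839, minus strand). Its counts were 83, 58, 87, 129, 148 and 145, with 8.23, 8.32, 12.2, 16.2, 102 and 33.9 expected. Counts were lower in each library of set A than in each of set B, and so was the expected background. The log2 ratio to background was 2.64 (SE 0.33, n = 6, edgeR adjusted p = 2.2e-07), and 2.84 without replicate 5. By exon length Baz2b had 1.98 ± 1.12 TPM, which became 1.33 ± 0.451 TPM with expected background subtracted.

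Bptf and Cecr2 encode the large subunits of NURF and CERF. Bptf (chromosome 11, 107033081 to 107132127, minus strand) had 57, 57, 48, 89, 80 and 66 counts with 2.62, 2.65, 3.91, 5.16, 32.4 and 10.8 expected. It was well above background, with a log2 ratio of 3.71 (SE 0.30, n = 6, edgeR adjusted p = 1.6e-10), and 3.90 without replicate 5, and a level by exon length of 1.49 ± 0.668 TPM. Cecr2 (chromosome 6, 120666369 to 120771190, plus strand) was weaker, with 25, 30, 21, 19, 35 and 22 counts and 2.78, 2.81, 4.13, 5.47, 34.3 and 11.5 expected. In replicate 5 its count was no higher than background (35 against 34.3), and the other libraries were 1.92 to 10.7 times above it. Its log2 ratio was 2.31 (SE 0.38, n = 6, edgeR adjusted p = 1.1e-05), 2.49 without replicate 5, and in set B alone 1.05 (adjusted p = 0.18), which is not a call.

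**Figure D2:**
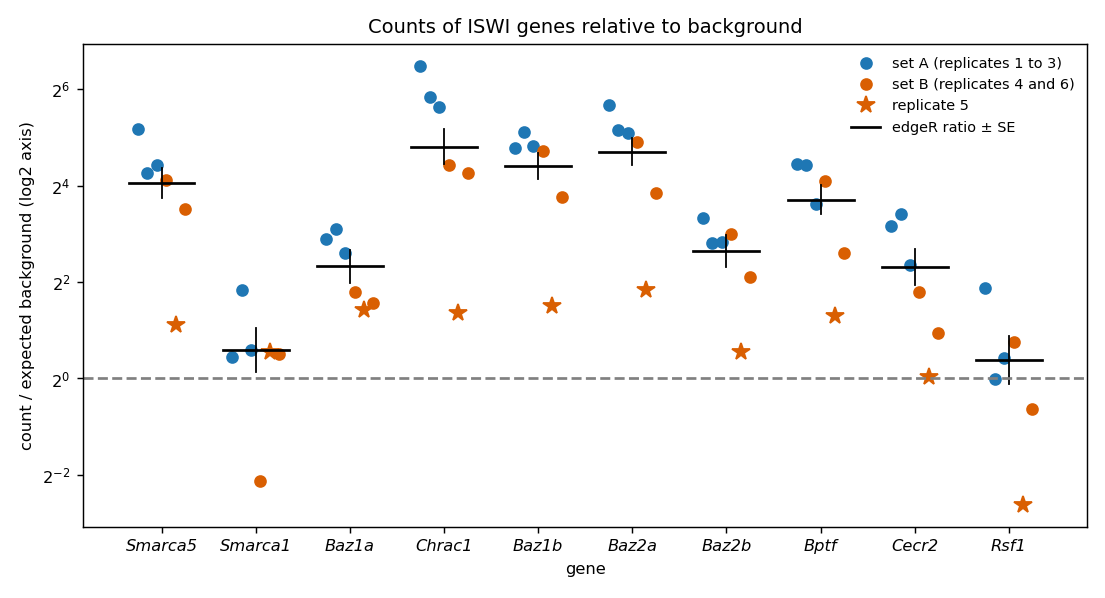
Ratio of raw count to expected background (y axis, log2 scale) for each ISWI gene, 1 point per library, coloured by set with replicate 5 as a star, and the edgeR ratio with its SE as a black bar. The dashed line marks a ratio of 1, which the bars of Smarca1 and Rsf1 lie nearest to.

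Rsf1, the histone-binding subunit of the RSF complex, had the fewest counts, but its exons lie mostly inside other counted genes. It spans chromosome 7, 97579889 to 97692778 (plus strand), and had 11, 3, 6, 10, 6 and 8 counts with 2.99, 3.03, 4.45, 5.89, 36.9 and 12.3 expected. The count was above the expected value in 3 of 6 libraries and well below it in replicate 5. The log2 ratio was 0.39 (SE 0.50, n = 6, edgeR adjusted p = 0.54), 0.63 without replicate 5 and -0.14 without replicate 1.

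The opposite-strand genes Rsf1os1 (97598349 to 97645112) and Rsf1os2 (97650010 to 97696828) and 3 pseudogenes cover 83.8% of the exon bases of Rsf1. Those 5 genes had 0 or 1 counts in all libraries together. Among the other 9 ISWI genes the overlapped share was 0% to 9.31%. Genes placed like this were often empty in these files: 1217 of 1217 protein-coding genes with no span of their own had no counts, as did 37.6% of 739 with 75% or more of their exon bases inside other genes, against 10.7% of 11829 free of overlap. When expected background was taken over the 22042 bp of Rsf1 outside other genes, its log2 ratio was 2.54, past the threshold (edgeR adjusted p = 2.5e-05). When its counts were divided by the 3085 bp of exon outside other genes, a length added once the overlap had been seen, its level was 0.685 ± 0.242 TPM in place of 0.115 ± 0.041 TPM.

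**Figure D3:**
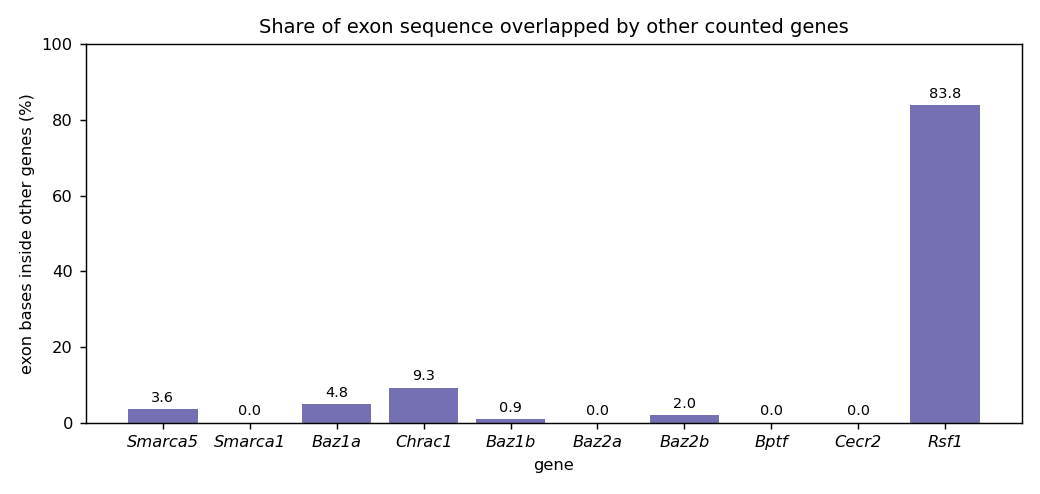
Share of exon bases (y axis, percent) of each ISWI gene (x axis) that lies inside the span of another counted gene. Rsf1 stands at 83.8% and the other 9 genes at 0% to 9.31%.

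Set against Smarca5 within each library, Smarca1, Cecr2 and Rsf1 were called lower by exon length, and the other 6 members were not called apart from it. The comparison was limma on differences of log2(TPM + 1) by exon length, adjusted over 14666 protein-coding genes, which share the same Smarca5 values. No member was called above Smarca5, where 21.1% of genes were, and 3 were called below, where 47.2% of genes were. The median difference over the 9 other members was 0.04, against -0.37 over all genes tested.

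The 3 below were Smarca1, at -0.61 ± 0.63 (SD, n = 6, limma adjusted p = 0.025, lower in 5 of 6 libraries), Cecr2, at -0.68 ± 0.29 (adjusted p = 0.0014, lower in 6 of 6), and Rsf1, at -1.07 ± 0.22 (adjusted p = 5.6e-05, lower in 6 of 6), with the overlap of Rsf1 described above. With exon length outside other genes Rsf1 was at -0.49 (limma adjusted p = 0.0048). The call of Smarca1 was lost without replicate 1, 3, 4 or 6 (limma adjusted p from 0.067 to 0.088), in set B alone (adjusted p = 0.31) and by a two-sided exact test that flips signs (p = 0.094), and without replicate 5 the difference was -0.84 (adjusted p = 4.7e-05).

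The other 6 members differed from Smarca5 by 0.03 to 0.27 log2 units by exon length and none passed, which does not show equal levels. Baz2b differed by 0.27 ± 0.32 (limma adjusted p = 0.11), higher in 5 of 6 libraries. Baz1a differed by 0.15 ± 0.71, or -0.12 without replicate 5. Baz2a tracked Smarca5 most closely from library to library, with a difference of 0.03 ± 0.12.

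By mean log2(TPM + 1) and exon length the order was Baz2b, Baz1a, Chrac1, Bptf, Baz1b, Baz2a, Smarca5, Smarca1, Cecr2 and Rsf1. Of the 9 pairs of neighbours, 1 reached an unadjusted p of 0.031, the smallest that the exact sign-flip test, two-sided over 6 libraries, can give. That pair was Cecr2 over Rsf1 (0.39 ± 0.22, higher in 6 of 6), with Rsf1 divided by its full exon length. By exon length outside other genes the order was the reverse, with Rsf1 at 0.685 ± 0.242 TPM and Cecr2 at 0.459 ± 0.232 TPM. No neighbour test was run on that length. The first 7 genes, from Baz2b to Smarca5, did not differ from their neighbours beyond the spread, with differences of 0.0058 to 0.12 and exact p of 0.50 to 1. The step from Smarca5 to Smarca1 was 0.61 ± 0.63 (exact p = 0.094) and that from Smarca1 to Cecr2 0.07 ± 0.52 (exact p = 0.91).

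The order rested on the length by which counts were divided and on whether background was subtracted. By whole gene span, Chrac1 led at 0.717 ± 0.234 TPM, followed by Baz2a at 0.575 ± 0.042, Baz1b at 0.475 ± 0.082 and Smarca5 at 0.370 ± 0.061 TPM. Baz1a and Baz2b, with their long spans, moved from the top to 0.161 ± 0.154 and 0.153 ± 0.058 TPM. On that scale Baz1a and Baz2b were called below Smarca5, at -0.25 each (limma adjusted p = 0.0089 and 5.6e-04), and Chrac1 and Baz2a above it, at 0.32 and 0.20 (adjusted p = 0.0042 and 9.8e-04). By span 19.7% of all genes were called above Smarca5 and 62.1% below it, against 2 and 5 of the 9 members. With background subtracted and exon length kept, Baz1a and Baz2b were 0.04 and 0.09 from Smarca5, and neither passed. On that scale Chrac1 led, followed by Baz2b, Baz2a, Baz1b and Baz1a, and Cecr2 stood above Smarca1. Smarca1, Cecr2 and Rsf1 were called below Smarca5 on all 3 scales.

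**Figure D4:**
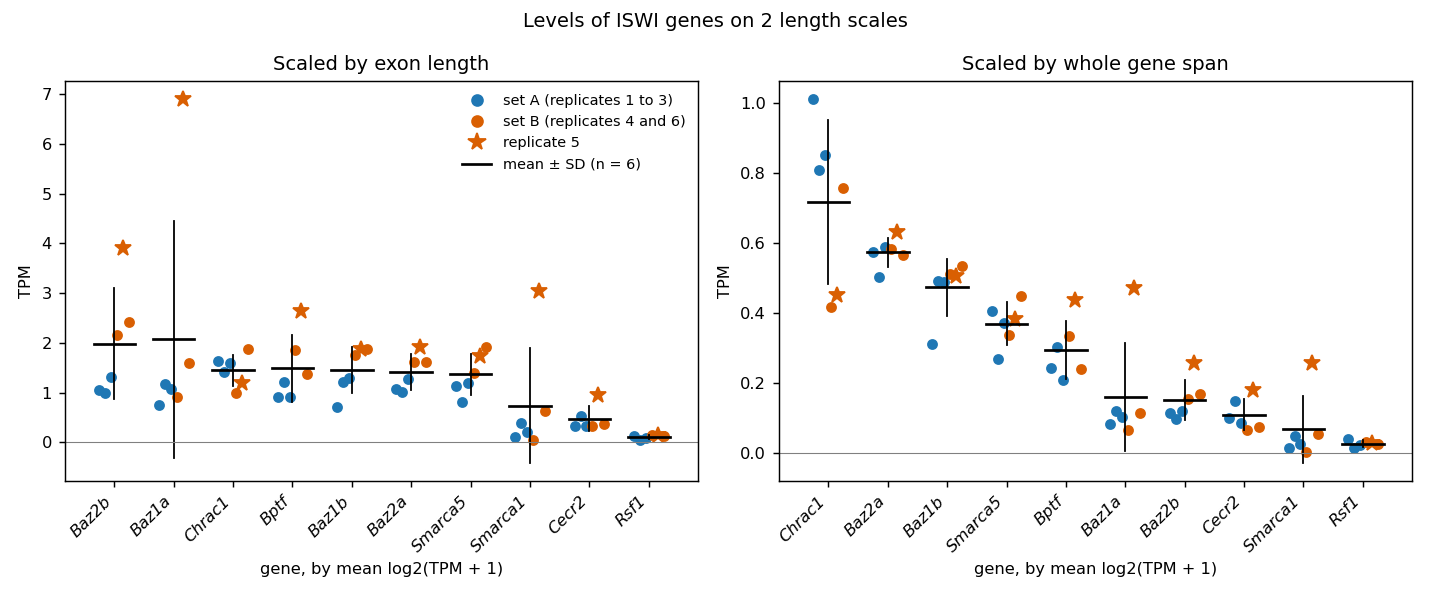
TPM of each ISWI gene (y axis) in 6 libraries, by exon length at left and by whole gene span at right, with genes in order of mean log2(TPM + 1), points coloured by set, replicate 5 as a star and black bars for mean ± SD. Baz2b and Baz1a lead at left and stand in the lower part of the order at right, while Chrac1, Baz2a, Baz1b and Smarca5 lead at right.

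The protein-coding genes nearest to Smarca5 in level across the 6 libraries, among 11814 outside the lists and free of overlap, were Pgpep1, Tfrc and Alg11. Their root mean square differences from Smarca5 in log2(TPM + 1) by exon length were 0.10, 0.10 and 0.11. Their levels were 1.33 ± 0.423, 1.30 ± 0.397 and 1.40 ± 0.494 TPM (SD, n = 6). With 137 to 161 counts each over all libraries, this is a description of level only.

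Another 15 genes tied to ISWI function were all above background (15 of 15, edgeR, against 62% of all genes), with a median log2 ratio of 4.39. They comprise the CHRAC subunit gene Pole3, the histone chaperone genes Rbbp4 and Rbbp7, which also serve NURF, Hmgxb4, genes of the B-WICH complex and its rDNA setting (Myo1c, Mybbp1a, Ddx21, Dek, Sf3b1, Ercc6, Ttf1), Ctcf, and the cohesin genes Rad21, Smc1a and Smc3. By exon length 5 were called above Smarca5, namely Pole3, Rbbp7, Dek, Sf3b1 and Rad21, and 3 below, namely Hmgxb4, with 41.8% of its exon bases inside other genes, Ercc6 and Ttf1 (limma, against 21.1% and 47.2% of all genes). Rad21, which encodes the ring-closing subunit of cohesin, was highest by mean TPM at 2.92 ± 0.936 TPM, 0.71 ± 0.20 above Smarca5 in log2(TPM + 1) (limma adjusted p = 5.5e-04, higher in 6 of 6). Rbbp7 had 2.47 ± 0.678 TPM, and its difference from Smarca5 was 0.55 ± 0.40 (limma adjusted p = 0.011), or 0.35 in set B alone, which is not a call (adjusted p = 0.35). Dek, a chromatin protein gene, had 2.86 ± 2.28 TPM, and its difference of 0.53 ± 0.64 (adjusted p = 0.048) was 0.33 without replicate 5 (adjusted p = 0.072), 0.16 by gene span and 0.09 in set A alone. The call of Dek was also lost without replicate 3, 4 or 6 (limma adjusted p from 0.085 to 0.14). Ttf1, whose protein binds rDNA and recruits NoRC, was lowest at 0.744 ± 0.358 TPM, and its difference of -0.45 ± 0.10 (limma adjusted p = 0.0051) was -0.46 in set B alone, which is not a call (adjusted p = 0.17).

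Between set B and set A no ISWI gene passed edgeR's test, in which 1 of 8723 genes was higher in set B (0.0115%) and none lower (0%). That gene was Top2a, a topoisomerase gene of dividing cells. Of the 10 genes 8 had enough counts to be tested, all but Smarca1 and Rsf1, and their median log2 difference was 0.23, against -0.0040 over all genes tested. At an unadjusted p under 0.05 there was 1 of 8, against 25.9% of all genes. DESeq2 also called 0 of the 8, but called 9.1% of 8721 genes higher and 2.6% lower, so the tools differ over all genes, and 0 of 8 is read against those shares.

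That 1 gene was Baz2b, higher in set B by 0.76 (SE 0.25, 3 libraries a set, edgeR unadjusted p = 0.013, adjusted p = 0.11). Without replicate 5 the difference was 0.66 with an adjusted p of 0.047, and the adjusted p without any other single library was higher, up to 0.42. Smarca5 differed by 0.17 (SE 0.33, edgeR adjusted p = 0.78) and Baz1a by 0.93 (SE 0.55, adjusted p = 0.32), which was -0.04 without replicate 5. Chrac1 was lower in set B by estimate, at -0.66 (SE 0.44, adjusted p = 0.38). These set fits used raw counts with no background taken off. Expected background for Baz2b was 8.23, 8.32 and 12.2 counts in set A and 16.2, 102 and 33.9 in set B. With it subtracted, Baz2b had 0.959, 0.854 and 1.14 TPM in set A and 1.90, 1.28 and 1.87 TPM in set B. Baz1a had 0.656, 1.05 and 0.905 TPM in set A and 0.649, 4.51 and 1.06 TPM in set B. The part of background in the set differences was not tested.

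In CPM over counts outside ribosomal RNA, 6 of the 10 genes had all 3 values of set B above all 3 of set A, where 40.7% of 17610 genes did. None had all 3 below, where 1.72% of genes did. For Smarca5 these were 8.94, 6.52 and 10.3 in set A and 13.6, 15.9 and 18.04 in set B. No background was taken off, and in replicate 5 Smarca5 had 29 counts with 13.4 expected. With expected background subtracted, Smarca5 had 1.10, 0.775 and 1.15 TPM in set A and 1.33, 0.976 and 1.77 TPM in set B, which overlap. On that scale Bptf and Rsf1 also overlapped, and Baz1b, Baz2a and Baz2b stayed apart. Cecr2 stood apart the other way, at 0.294, 0.482 and 0.264 TPM in set A and 0.235, 0.020 and 0.183 TPM in set B. TPM also keep ribosomal RNA in the total, and without subtraction Rsf1 already overlapped (0.130 TPM in replicate 1, 0.123 TPM in replicate 6). The share of all genes apart with background subtracted was not counted. Scaling to counts outside ribosomal RNA put the median of all genes 0.71 log2 units higher in set B. In that direction Smarca5, Baz1b, Baz2a, Baz2b, Bptf and Rsf1 stood apart in CPM. Scaled in this way Baz2b and Bptf, of 8 members tested, passed edgeR's test, at 1.51 and 1.15 (adjusted p = 0.049 for both). Of all 8723 genes tested 1438 were called higher and 38 lower, so these calls by themselves do not set the members apart. Set B also had the lower acinar marker sum, made up mostly of enzyme genes, and the higher proliferation marker sum given above. The number in the names cannot be told apart from these sums.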

How the data were processed

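RNA-seq was measured in 6 libraries of sorted mouse acinar cells. Per the submitters' processing notes the authors used Trim Galore 0.6.4, FastQC, STAR 2.7.9a, SAMtools and featureCounts on build mm10. The authors deposited raw read counts for each gene symbol, with lengths equal to whole gene spans, per the file headers; annotation release, strand setting and treatment of reads with several alignments are not given in the sources used here. Genomic DNA is named as the molecule in the labels, but title and protocol describe RNA.

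Exon lengths came from GENCODE M21 (55065 of 55367 symbols). TPM used all genes with an exon length, ribosomal RNA included, and levels were log2(TPM + 1). Background was counts per base over 1487 protein-coding olfactory and vomeronasal receptor genes (13.0 Mb, 7548 counts). Its log, with each gene's span, was the offset of an intercept fit in edgeR 4.0.16 (genes with 10 or more counts, receptor, ribosomal RNA and mitochondrial genes left out). The ratio fitted this way weighs libraries more evenly than the ratio of summed counts, in which replicate 5 dominates. Differences from Smarca5 used limma 3.58.1, and sets were compared with edgeR (TMM, filterByExpr) without a background offset. SE values of both edgeR fits are the log2 estimate over the root of its F statistic. DESeq2 1.42.0, R 4.3.3, Python 3.11.15 and Biopython 1.88 were also used. Total counts of 4670819 to 7072270 set the precision, and Poisson intervals cover counting error only. The fits were tested on simulated data, where most of the smaller differences put in were missed in each comparison, so a difference that did not pass is not shown to be absent.

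All 10 members were named, with the 3 highest and the lowest of the 15 linked genes by mean TPM and the 3 genes nearest to Smarca5, and the genes called in the linked list and the sets were named after their values were seen. Members and lists were chosen with earlier results of these data known.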

Additional observations from a re-analysis of the deposited data

Results flagged for a closer look

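In 3 of 20 groups of values tested (TPM and ratio to background of each ISWI gene over 6 libraries), 1 library lay far from the others by Dixon's criterion at 95%, which chance meets in about 1 group in 20. The library was replicate 5 in each case, the one with the highest background. The 20 groups share the same 6 libraries and are not independent, so 3 of 20 cannot be weighed against that rate. Smarca1 had 3.05 TPM there against 0.048 to 0.624 in the other libraries, Baz1a 6.90 TPM against 0.756 to 1.60, and Cecr2 0.955 TPM against 0.328 to 0.531. With expected background subtracted, replicate 5 had 4.51 TPM of Baz1a, 1.01 TPM of Smarca1 and 0.020 TPM of Cecr2. What sets Baz1a apart in this library was not tested.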

How the results depend on the processing

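No paired analysis was possible because the labels number 1 group from 1 to 6. Genes called above background stayed within 1.5 times of 10754 under every alternative run. Genes called below it (54) were 0 by DESeq2, 392 without a filter, 4 by span outside other genes, 10 in set A alone, 13 in set B alone, 228 by limma (added after seeing the data) and 25 to 42 without 1 replicate, the lowest without replicate 5. The log2 ratio of Rsf1 was -0.38 in set B alone, -0.050 by limma and by the sign-flip test, and -0.14 to 0.63 without 1 replicate. Genes called below Smarca5 (6918) were 14414 without a filter and 3797 in set A alone, and set B alone gave 1811 above and 2112 below. By gene span the differences from Smarca5 were -0.25 for Baz1a, -0.25 for Baz2b and -0.081 for Bptf; in set A alone Baz1a gave -0.032 and Bptf -0.023, and in set B alone Chrac1 gave -0.20. Without 1 replicate Baz1a ranged from -0.12 to 0.25, Baz1b from -0.0051 to 0.12, Bptf from -0.023 to 0.12 and Chrac1 from -0.015 to 0.13.

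Between the sets, 794 genes were called higher and 227 lower by DESeq2, 790 and 203 without a filter, and 1438 and 38 by the total outside ribosomal RNA. Without 1 replicate the numbers ran from 0 to 1656 higher and 0 to 561 lower, the largest without replicate 4, with 366 and 369 without replicate 5 and 0 without replicate 1, 2, 3 or 6. Without a filter Smarca5 gave -0.098 and Baz2a -0.17, and by the total outside ribosomal RNA Chrac1 gave 0.022 and Cecr2 0.65. Without 1 replicate Smarca5 ranged from -0.10 to 0.28, Baz1a from -0.036 to 1.21, Baz1b from -0.0030 to 0.41, Baz2a from -0.092 to 0.17 and Cecr2 from -0.51 to 0.025. The causes were not tested. The number of neighbour pairs with the smallest exact p was 1 under each scale run, but the pair was not always the same. By exon length it was Cecr2 over Rsf1, and by gene span it was Baz2a over Baz1b. In these neighbour tests 5 libraries cannot reach the threshold, so no library was left out there. With 21 to 51 counts of Smarca5 per library, counting error limits its differences.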
